A study of Mus musculus with 32 samples.

Results

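Autotaxin, the 6 receptors for lysophosphatidic acid (LPA) and 2 enzymes that break LPA down were followed at the RNA level in mouse embryonic stem cells (ESC) and in neural cultures (NS) made from them. The 9 genes are Enpp2, Lpar1, Lpar2, Lpar3, Lpar4, Lpar5, Lpar6, Plpp1 and Plpp3, taken by symbol from the 55573 genes of the deposited tables. They were selected on measured values, the high Enpp2 of the MD stem cells, with earlier results of the same data known. The difference between MD and R42A in ESC is therefore given for these genes as a description, with no p-value, and so is each value computed from it.

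LPA is a phospholipid that signals from outside the cell. Autotaxin, the secreted enzyme encoded by Enpp2, makes most extracellular LPA by cutting the choline head group from lysophosphatidylcholine. LPA acts on G protein-coupled receptors of 2 families, the Edg family (Lpar1, Lpar2 and Lpar3) and a group closer to the purinergic receptors (Lpar4, Lpar5 and Lpar6). Several of these receptors drive actin assembly and the transcription factors SRF and YAP. The membrane phosphatases encoded by Plpp1 and Plpp3 remove the phosphate of LPA at the cell surface and so end the signal. In mice, loss of autotaxin or of Plpp3 stops development at the stage when vessels form, and LPA is known to shape neural progenitors through Lpar1.

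Every library came from cells of strain 129S5/SvEvBrd with a tag on Smarce1, which encodes the subunit BAF57 of SWI/SNF chromatin remodellers. The tag was MD or MD(R42A), and no untagged cells were included. The labels leave both names unexplained; as background, MD is taken to be a cyclin B1 degron that removes the protein at mitosis, with R42A as its inactive form. The groups were NS of the MD clones 09 and 30 and of the R42A clones A04 and A10, with 2 libraries per clone, and ESC of the MD clones 09, 30, 45 and 47 and of the R42A clones A04, A10, A01 and A02, with 3 libraries per clone. ESC were kept with LIF and serum on gelatin, and NS spent 6 days in a medium that the labels spell both RHB-A and RHA-B. Each clone is a single line, and nothing states that the libraries of a clone were separate cultures, so the p-values measure only the spread between these samples, which may be technical. The ESC libraries fall into 2 series by their library numbers (clones 09, 30, A04 and A10 first, the others second), and all NS libraries form 1 further series, so the effect of stage and that of series cannot be told apart.

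The 32 libraries held between 38699951 and 96424439 expected counts. Levels are CPM, counts scaled to the TMM-adjusted library size, with the SD over clones, and levels of different genes are compared only in TPM, which also divides by exon length. The labelled stages went with their defining markers. Pou5f1, a core pluripotency gene, averaged 8.89 ± 0.541 CPM in NS and 1100 ± 344 CPM in ESC of MD. In R42A it averaged 9.96 ± 0.148 CPM in NS and 1340 ± 545 CPM in ESC. Sox1, a neural progenitor gene, averaged 125 ± 2.58 CPM in NS and 4.54 ± 3.22 CPM in ESC of MD. In R42A it averaged 174 ± 4.58 CPM in NS and 11.8 ± 5.52 CPM in ESC (SD, n = 2 NS clones and 4 ESC clones). Sox1 was lower in ESC of MD than of R42A (log2 -1.41 ± 0.39, SE, edgeR adjusted p 0.021). The other neural progenitor markers did not share this direction. Of 9 tested in ESC, 4 were higher in MD and 1, Sox1, lower, where 17.1% of all genes were higher and 19.4% lower. Nes was among the higher ones (log2 1.71 ± 0.22, SE, edgeR adjusted p 0.000585). Smarce1 RNA, whose level does not report on the tagged protein, was 294 ± 6.65 CPM in MD clones and 231 ± 2.23 CPM in R42A clones in NS. The ESC levels were 117 ± 6.00 CPM in MD clones and 109 ± 14.7 CPM in R42A clones. The NS groups also differed in cell type markers. Neuron markers summed to 2520 to 2560 CPM in MD and 918 to 938 CPM in R42A, and parietal endoderm markers to 1440 to 1540 CPM in MD and 3880 to 4620 CPM in R42A. All 12 neuron markers were higher and all 8 parietal endoderm markers lower in MD at an adjusted p under 0.05. Of all genes tested in NS, 17.4% were higher and 16.3% lower. Bulk RNA cannot tell fewer cells of a type from less RNA per cell, and the part of these markers in the results below was not tested.

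In NS, the receptors Lpar2, Lpar3, Lpar4 and Lpar6 passed as lower in MD and no member passed as higher. The test was edgeR's quasi-likelihood test in 1 fit of the 4 groups, with Benjamini-Hochberg adjustment over all 23844 genes tested. This fit estimates spread from the NS and ESC sums together, so its SE and p are not those of the NS clones alone. With the NS sums alone, a fit with 2 residual degrees of freedom, Enpp2 and Plpp3 also passed as higher and Lpar1 as lower. The fit of the 4 groups called 33.7% of all genes, 17.4% higher and 16.3% lower, so 4 of 9 members lower and 0 higher are read against that background. The median log2 fold change of the 9 members was -0.52, beside -0.002 over all genes tested. That median is the value of Lpar5, which rests on 2 to 13 counts per NS library and is imprecise. All 9 members passed the filter on low counts in both fits. In ESC, the log2 fold changes of MD over R42A ran from -0.58 (Lpar5) to 4.32 (Enpp2), with a median of 0.41 beside -0.035 over all 21567 genes tested. The test called 36.5% of those genes, 17.1% higher and 19.4% lower. Nothing is read from the members' values there, since this contrast helped to choose them.

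**Figure D1:**
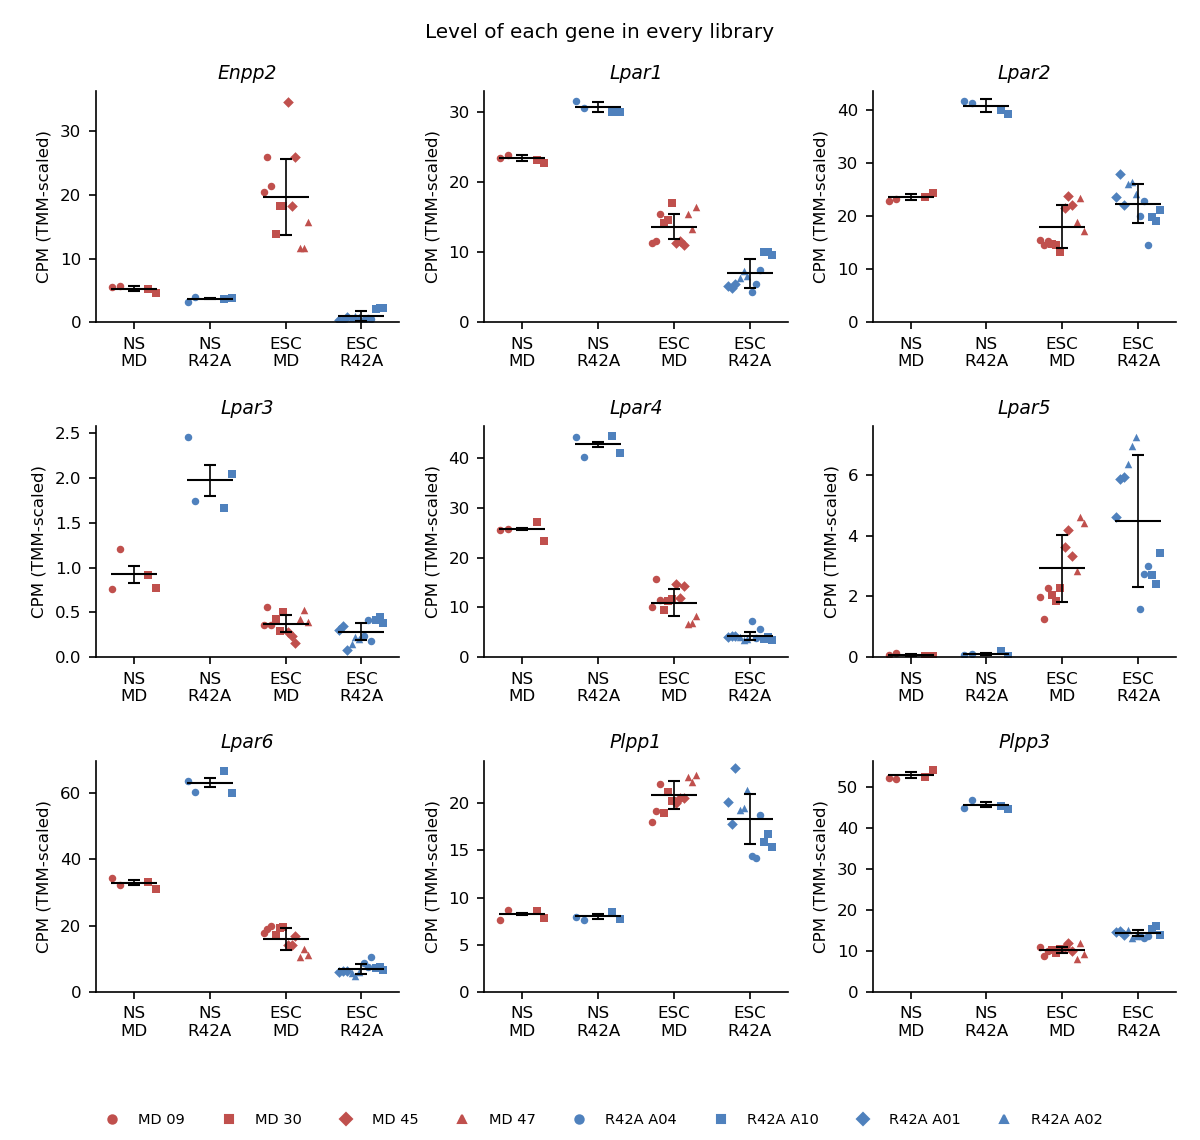
Level of each of the 9 genes in every library, in TMM-scaled CPM (y axis, from 0), for NS of MD and R42A and ESC of MD and R42A (x axis). Symbols are libraries, with 1 shape per clone, and the bar and whiskers are the mean and SD over clones; Enpp2 is high in ESC of MD, with 11.6 CPM in the lowest library and 2.19 CPM in the highest of R42A, while Lpar4 and Lpar6 reach their highest levels in NS of R42A.

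Enpp2 (ENSMUSG00000022425.16, minus strand, mm10 chr15:54838901-54952892) encodes autotaxin, the source of the ligand. In NS it had 5.50, 5.64, 5.18 and 4.59 CPM in the MD libraries, against 3.22, 3.91, 3.65 and 3.84 CPM in the R42A libraries. Every MD library was above every R42A library. Of all genes tested in NS, 51.1% had no overlap between the libraries of the groups, 25.9% with MD higher and 25.2% with MD lower, and of the members 2 were higher in this way (Enpp2 and Plpp3) and 5 lower (Lpar1, Lpar2, Lpar3, Lpar4 and Lpar6). The log2 fold change was 0.52 ± 0.52 (SE), with an edgeR adjusted p of 0.489, while the NS sums alone gave 0.53 with an adjusted p of 2.77e-06. The SE of 0.52 also holds the spread of the ESC sums, where R42A clones A04 and A10 had 0.526 and 2.13 CPM. In ESC the MD libraries had 11.6 CPM at the lowest, 18.3 at the median and 34.6 at the highest, against 0.353, 0.752 and 2.19 CPM in R42A. The 12 libraries of each group did not overlap. That was so for 6.3% of all genes in ESC, 3.55% with MD higher and 2.74% with MD lower, and for 3 members in the first direction (Enpp2, Lpar1 and Lpar6) and 1 in the second (Plpp3).

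The log2 fold change of Enpp2 in ESC was 4.32 ± 0.48 (SE, 8 clones), a 19.9-fold difference. It was 3.87 in the first library series and 4.83 in the second, by the ratio of clone means. Clones varied within both groups. Among R42A clones A10 stood highest at 2.13 CPM, with 0.526, 0.531 and 0.868 CPM in the other 3, and leaving A10 out moved the log2 fold change to 5.03. Clone 47 was the lowest of the MD clones and 45 the highest, a spread of 5.97 CPM (SD) around a mean of 19.7 CPM. Gm26684, an antisense transcript that shares 345 exon bases with Enpp2, had at most 0.0838 CPM in any clone.

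Autotaxin RNA is known from choroid plexus, endoderm, mesenchyme and vessels, so the markers of those tissues are given beside it. In ESC, choroid plexus markers summed to 40.5 to 67.5 CPM in MD clones and 29.7 to 37.6 CPM in R42A clones, with 2 of 4 tested higher in MD and 0 lower, and Ttr, the defining one, was at most 0.0371 CPM. Mesenchyme and smooth muscle markers summed to 70.5 to 122 CPM in MD and 16.9 to 41.4 CPM in R42A, and 7 of 11 tested were higher in MD and 1 lower. Endothelium markers summed to 118 to 177 CPM in MD and 77.9 to 130 CPM in R42A, with 3 of 7 tested higher and 0 lower, and parietal endoderm markers to 524 to 634 CPM in MD and 310 to 582 CPM in R42A, with 4 of 8 higher and 0 lower. Visceral endoderm markers gave 0 of 11 higher and 1 lower. Oligodendrocyte lineage markers, a further list, summed to 35.8 to 49.4 CPM in MD and 27.3 to 37.1 CPM in R42A, with 3 of 7 tested higher and 0 lower. Pluripotency markers summed to 4810 to 5560 CPM in MD and 5710 to 6850 CPM in R42A, with 1 of 10 higher and 8 lower. Of all genes tested in ESC, 17.1% were higher and 19.4% lower. In NS, choroid plexus markers summed to 25.9 to 26.7 CPM in MD and 70.5 to 72.1 CPM in R42A, with 0 of 8 higher and 5 lower. There, visceral endoderm markers gave 0 of 13 higher and 6 lower, endothelium 1 of 7 and 2, and oligodendrocyte lineage 5 of 9 and 1. The part of these markers in the Enpp2 difference was not tested.

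The 6 genes whose log2 CPM ran most like Enpp2 over the 12 clone-by-stage sums were Rffl, Sertad2, Cd63, Psme2, Egfr and Psme2b, with a Pearson r of 0.940 to 0.975 among 15168 genes ranked. These 12 sums share the high ESC of MD, so the correlation describes that pattern. Rffl, Sertad2, Egfr and Psme2b lie on chromosome 11, where the median log2 fold change of MD over R42A was 0.48 in NS and 0.45 in ESC; Enpp2 lies on chromosome 15, where it was -0.026 in NS and -0.074 in ESC. Cd63, a tetraspanin of late endosomes, averaged 58.4 ± 2.01 CPM in MD clones and 59.8 ± 0.295 CPM in R42A clones in NS, and 88.1 ± 10.6 CPM in MD clones and 36.8 ± 7.30 CPM in R42A clones in ESC. Egfr, the receptor of epidermal growth factor, averaged 7.08 ± 0.341 CPM in MD and 5.86 ± 0.757 CPM in R42A in NS, and 9.26 ± 0.783 CPM in MD and 3.52 ± 1.69 CPM in R42A in ESC.

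Lpar4 and Lpar6 fell in NS of MD, and their ESC log2 fold changes, as descriptions, were above 0. Lpar1 had the same signs, without passing in NS. Their RefSeq promoter windows (build GRCm38.p6, 250 bases before to 50 after the start site, 5′ to 3′ on the gene's strand) are shown because the 3 genes ran together over the 12 clone sums. The r was 0.988 for Lpar4 with Lpar6, 0.936 for Lpar1 with Lpar6 and 0.915 for Lpar1 with Lpar4, given as descriptions. Capitals mark CG pairs and, in Lpar6, also 1 GGAATG motif on the reverse strand. Lpar1 has 3 windows in the RefSeq table, of which the one farthest upstream is printed. Of the 9 genes, 7 were matched to this table.
Lpar4, chrX:106920375-106920674, plus strand: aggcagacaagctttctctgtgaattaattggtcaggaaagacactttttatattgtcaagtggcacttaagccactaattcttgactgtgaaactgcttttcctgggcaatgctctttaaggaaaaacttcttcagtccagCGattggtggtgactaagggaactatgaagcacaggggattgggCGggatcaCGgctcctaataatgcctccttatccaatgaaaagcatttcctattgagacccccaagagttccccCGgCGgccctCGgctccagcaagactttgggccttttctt
Lpar6, chr14:73237641-73237940, plus strand: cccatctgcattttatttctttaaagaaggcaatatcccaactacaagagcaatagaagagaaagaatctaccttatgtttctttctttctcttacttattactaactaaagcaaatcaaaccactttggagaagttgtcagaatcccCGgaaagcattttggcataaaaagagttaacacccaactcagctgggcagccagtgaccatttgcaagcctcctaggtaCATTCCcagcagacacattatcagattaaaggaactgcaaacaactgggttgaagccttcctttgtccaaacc
Lpar1, chr4:58553442-58553741, minus strand: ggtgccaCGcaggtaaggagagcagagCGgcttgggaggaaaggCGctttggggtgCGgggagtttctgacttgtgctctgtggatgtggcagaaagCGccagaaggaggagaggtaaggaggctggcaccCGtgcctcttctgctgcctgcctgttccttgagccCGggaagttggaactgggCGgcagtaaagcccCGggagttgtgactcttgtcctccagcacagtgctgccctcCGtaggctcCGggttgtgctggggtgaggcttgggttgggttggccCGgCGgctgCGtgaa

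The 3 windows differ in base composition. Lpar6 has 1 CG pair and 40.0% G or C, Lpar4 has 6 CG pairs and 46.7%, and the printed Lpar1 window has 14 CG pairs and 63.0%. The median over 32851 mouse promoter windows of 300 bases was 7 CG pairs and 52.7%. The Lpar1 windows that are not printed differ from this one, with 37 CG pairs and 71.7%, and with 3 CG pairs and 43.7%. Both strands were searched for the CArG box of SRF, for GGAATG of the TEAD partners of YAP, for the octamer ATGCAAAT and for CTTTGAT of the Lef1 and Tcf factors. The only match in the 3 printed windows was GGAATG in Lpar6, from 23 to 18 bases before the start site. Of all windows, 14.7% hold GGAATG, 1.63% a CArG box, 1.74% ATGCAAAT and 3.73% CTTTGAT. A match is a description and not a binding site.

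Lpar4 (ENSMUSG00000049929.7, plus strand, chrX:106920625-106933900) encodes a receptor of the purinergic-like group that acts in vessel formation in mice. Its NS levels were 25.6, 25.8, 27.1 and 23.3 CPM in the MD libraries, against 44.4, 40.2, 44.4 and 41.1 CPM in the R42A libraries. All MD libraries lay below all R42A libraries. The log2 fold change was -0.74 ± 0.17 (SE), with an edgeR adjusted p of 0.0136. In ESC the MD libraries ran from 6.57 CPM (median 11.3) to 15.7 CPM, against 3.34 CPM (median 3.93) to 7.16 CPM in R42A. These ranges overlapped by the low libraries of MD clone 47 and the highest of R42A clone A04, while the clone means did not, with a log2 fold change of 1.37 ± 0.21 (SE).

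Lpar6 (ENSMUSG00000033446.7, plus strand, chr14:73237895-73243294) encodes a receptor of the same group whose loss in humans affects hair growth. The NS libraries of MD had 34.3, 32.3, 33.0 and 31.1 CPM, against 63.7, 60.2, 66.6 and 60.2 CPM in R42A libraries. The log2 fold change of -0.94 ± 0.10 (SE; edgeR adjusted p 0.000684) came with no overlap of libraries. ESC libraries of MD had 10.6 CPM at the lowest, 16.97 at the median and 19.7 at the highest, against 4.70, 6.45 and 10.5 CPM in R42A. The lowest MD library was just above the highest R42A library, and the log2 fold change was 1.195 ± 0.11 (SE). Lpar6 lies within Rb1 on the opposite strand and shares 408 exon bases with it; the strand setting of the counting is not given in the sources used here, so some Rb1 reads could be counted as Lpar6. Rb1, the retinoblastoma gene, averaged 63.8 ± 0.00813 CPM in MD and 55.1 ± 0.368 CPM in R42A in NS, and 18.3 ± 3.22 CPM in MD and 18.9 ± 5.40 CPM in R42A in ESC.

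Lpar1 (ENSMUSG00000038668.14, minus strand, chr4:58435255-58553898) encodes the Edg-family receptor known for its expression in the ventricular zone of the developing cortex. NS of MD had 23.4, 23.9, 23.2 and 22.7 CPM in its 4 libraries, against 31.6, 30.6, 29.98 and 29.9 CPM in the R42A libraries. MD libraries were all lower, yet the log2 fold change of -0.39 ± 0.22 (SE) had an edgeR adjusted p of 0.208. The log2 fold change was -0.36 without clone A04, -0.41 without A10, -0.42 without 09 and -0.37 without 30. ESC of MD ran from 10.999 CPM (median 13.7) to 16.9 CPM, against 4.33 CPM (median 6.47) to 9.999 CPM in R42A. No MD library fell below an R42A library, and A10 was the highest R42A clone here as for Enpp2. The ESC log2 fold change was 0.97 ± 0.19 (SE).

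Lpar2 and Lpar3, the other Edg-family receptors, also fell in NS of MD. Lpar2 (ENSMUSG00000031861.16, plus strand, chr8:69822429-69831102) had 22.9, 23.2, 23.6 and 24.5 CPM in the MD libraries, against 41.8, 41.4, 40.1 and 39.2 CPM in the R42A libraries. The libraries of the groups were well apart, and the log2 fold change was -0.79 ± 0.07 (SE; edgeR adjusted p 0.000382). In ESC the Lpar2 libraries overlapped, with 13.2 CPM at the lowest, 16.3 at the median and 23.7 at the highest in MD, against 14.5, 22.5 and 28.003 CPM in R42A, and the log2 fold change was -0.33 ± 0.07 (SE). The median log2 fold change of the genes on chromosome 8 was itself -0.28 in NS and -0.455 in ESC. With each chromosome scaled separately, Lpar2 still fell in NS, by 0.476 on the log2 scale, while its ESC value changed sign to 0.13.

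Lpar3 (ENSMUSG00000036832.5, plus strand, chr3:146220963-146286186), known from the uterus where it acts in embryo implantation, was sparse. Its NS libraries had 0.759, 1.21, 0.911 and 0.769 CPM in MD, against 2.46, 1.75, 1.66 and 2.04 CPM in R42A, from 37 to 81 counts per library in MD and 104 to 133 in R42A. All MD libraries were below all R42A libraries, with a log2 fold change of -1.10 ± 0.24 (SE; edgeR adjusted p 0.0126). In ESC the libraries overlapped, from 0.158 CPM (median 0.376) to 0.556 CPM in MD and from 0.081 CPM (median 0.271) to 0.447 CPM in R42A, with a log2 fold change of 0.41 ± 0.26 (SE).

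The NS calls depended on which clones entered the fit and its shared estimate of spread. Without clone 09 the test called 1600 genes and without clone 30 it called 1538, in place of 8030. Lpar3 then had an adjusted p of 0.138 and 0.191, Lpar4 0.154 and 0.164, and Lpar6 0.0459 and 0.0501, while Lpar2 stayed called at 0.0373 and 0.0345. The log2 fold changes moved little, between -1.22 and -0.995 for Lpar3, between -0.75 and -0.73 for Lpar4 and between -0.97 and -0.91 for Lpar6. In these fits the lone MD clone of NS is assumed to vary like the other groups. Between NS libraries of 1 genotype, the median absolute log2 ratio was 0.101 between and 0.0985 within clones in MD, and 0.103 between and 0.118 within clones in R42A.

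Lpar5 (ENSMUSG00000067714.13, plus strand, chr6:125067920-125082472) encodes the purinergic-like receptor best known from mast cells and sensory neurons. In NS it was near the limit of detection, with 2 to 9 counts per library in MD (0.030 to 0.134 CPM) and 2 to 13 in R42A (0.036 to 0.202 CPM). The libraries overlapped, and the log2 fold change of -0.52 ± 0.49 (SE; edgeR adjusted p 0.453) was not detectable as a difference at this depth. In ESC the MD libraries had 1.26 CPM at the lowest, 2.55 at the median and 4.62 at the highest, against 1.60, 4.02 and 7.25 CPM in R42A. Levels also differed by library series: clones of the first series averaged 1.95 CPM in MD and 2.67 CPM in R42A, and clones of the second 3.89 CPM in MD and 6.28 CPM in R42A. Within each series both MD clones were below both R42A clones, and the log2 fold change was -0.58 ± 0.13 (SE).

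Neither of the enzymes that end the signal passed the test in NS. Plpp3 (ENSMUSG00000028517.8, plus strand, chr4:105157347-105232764) encodes the surface phosphatase that mouse embryos need for vessel formation and axis patterning. Its NS levels were 52.3, 52.1, 52.5 and 54.2 CPM in the MD libraries, against 44.98, 46.8, 45.4 and 44.7 CPM in the R42A libraries. All MD libraries were higher, by a log2 fold change of 0.21 ± 0.08 (SE) that had an edgeR adjusted p of 0.0736. DESeq2 gave an adjusted p of 0.0357 for it, but in 6 of 12 alternatives it did not pass, as in the main fit. Over these 12 the log2 fold change ran from 0.197 to 0.238. ESC levels in MD had a lowest of 8.02 CPM, a median of 10.1 and a highest of 12.01, against 13.1, 13.9 and 16.0 CPM in R42A. All 12 MD libraries were lower, with a log2 fold change of -0.50 ± 0.08 (SE).

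Plpp1 (ENSMUSG00000021759.14, plus strand, chr13:112800792-112867894) encodes a widely expressed phosphatase of the same family. NS levels were 7.58, 8.71, 8.61 and 7.81 CPM in MD libraries, against 7.89, 7.66, 8.47 and 7.78 CPM in R42A libraries. The libraries were interleaved, with a log2 fold change of 0.04 ± 0.07 (SE; edgeR adjusted p 0.710). In ESC the MD libraries ran from 18.1 CPM (median 20.6) to 23.0 CPM, against 14.2 CPM (median 18.3) to 23.7 CPM in R42A, and overlapped, with a log2 fold change of 0.20 ± 0.08 (SE). Plpp1 shares 452 exon bases with Mtrex on the opposite strand, which had 96.3 and 99.7 CPM in MD clones and 116 and 121 CPM in R42A clones of NS.

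**Figure D2:**
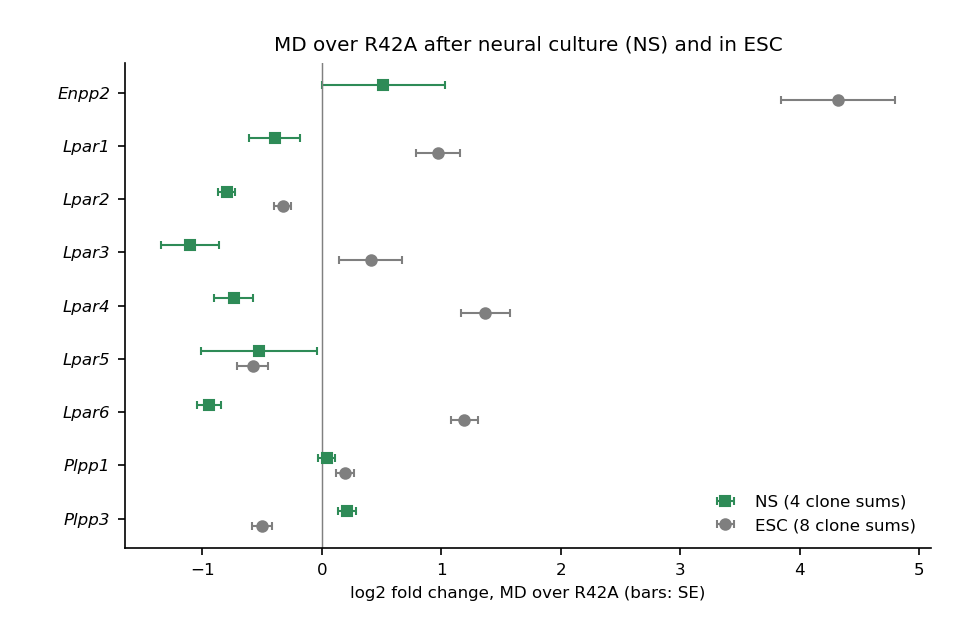
Log2 fold change of MD over R42A (x axis) for each gene (y axis) in NS (squares, 4 clone sums) and ESC (circles, 8 clone sums), with SE bars and a line at 0. Lpar4 stands at -0.74 in NS and 1.37 in ESC, Lpar6 at -0.94 and 1.195, and Enpp2 at 0.52 and 4.32, so these 3 genes lie further left in NS.

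The difference between these contrasts was computed as an interaction in 1 fit of 8 clone sums, 4 of NS and 4 of ESC, with the clone labels 09, 30, A04 and A10. It subtracts the ESC contrast that helped to choose the genes, so its values are descriptions with no test. For Enpp2 the MD difference in NS less that in ESC was -3.37 ± 0.75 (SE) on the log2 scale. For the receptors it was -2.17 ± 0.14 for Lpar6, -2.08 ± 0.24 for Lpar4, -1.34 ± 0.35 for Lpar3, -1.22 ± 0.31 for Lpar1, -0.42 ± 0.10 for Lpar2 and -0.09 ± 0.54 for Lpar5. It was 0.72 ± 0.11 for Plpp3 and -0.295 ± 0.10 for Plpp1.

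Over 12 alternatives, which included leaving out each of the 4 clones and adding the clone as a block, since its label pairs NS with ESC of the same line, these values ran from -2.37 to -2.004 for Lpar6, from -2.41 to -1.815 for Lpar4, from -1.81 to -0.96 for Lpar3, from -1.68 to -0.87 for Lpar1 and from -0.53 to -0.33 for Lpar2. The range was 0.59 to 0.82 for Plpp3. Lpar5 ran from -1.10 to 0.48 and so had no stable sign. Leaving out R42A clone A10 gave Enpp2 -4.69 and leaving out A04 gave -2.72, the ends of its range.

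Between the stages, 6 members were higher and 3 lower in NS than in ESC of MD, where 81.3% of all genes passed, 40.3% higher and 41.0% lower. In R42A 7 members were higher and 2 lower, where 78.3% of genes passed, 37.9% higher and 40.4% lower. These counts include Enpp2, and the comparisons share their groups with those above. They reuse ESC sums of the contrast that helped to choose the members, so the p-values below are not free of that choice and are descriptions. The levels below are those of the clones in this fit, 09 and 30 of MD and A04 and A10 of R42A. Lpar4 had 25.8 and 25.6 CPM in NS and 12.1 and 10.7 CPM in ESC of the MD clones, and rose by 1.10 ± 0.17 log2 units (SE; edgeR adjusted p 0.000599). In R42A it had 42.4 and 43.2 CPM in NS and 5.49 and 3.65 CPM in ESC, a rise of 3.18 ± 0.18 (adjusted p 3.24e-06). Lpar6 rose by 0.74 ± 0.10 in MD (adjusted p 0.000305) and by 2.92 ± 0.11 in R42A (adjusted p 4.31e-07), with 62.1 and 64.1 CPM in NS and 9.01 and 7.14 CPM in ESC of the R42A clones. The rise in MD less that in R42A is the value given above for the contrasts, -2.08 for Lpar4 and -2.17 for Lpar6.

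The Edg-family receptors rose as well. Lpar1 rose by 0.68 ± 0.22 in MD (edgeR adjusted p 0.0219) and by 1.90 ± 0.22 in R42A (adjusted p 0.000155). Lpar2 rose by 0.61 in MD (adjusted p 0.000151) and by 1.04 in R42A (adjusted p 9.505e-06), and Lpar3 by 1.13 ± 0.25 in MD (adjusted p 0.00419) and 2.47 ± 0.25 in R42A (adjusted p 7.33e-05). In MD the calls of Lpar1 and Lpar3 were lost without clone 09 (adjusted p 0.254 and 0.0985) or without clone 30 (0.125 and 0.0685), and that of Lpar1 also with no filter on low counts (0.0642). Lpar5 was the receptor that fell, by -4.89 ± 0.38 in MD (adjusted p 1.465e-05) and -4.80 ± 0.36 in R42A (adjusted p 1.463e-05), to 0.098 and 0.035 CPM in NS against 1.87 and 2.02 CPM in ESC of the MD clones. With 17 and 23 counts in all NS libraries of MD and R42A, the size of that fall is imprecise.

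The phosphatases went in opposite directions. Plpp3 rose by 2.34 ± 0.08 log2 units in MD (edgeR adjusted p 2.8e-07) and 1.62 ± 0.08 in R42A (adjusted p 1.415e-06). Plpp1 fell, with -1.35 ± 0.07 in MD (adjusted p 2.18e-06) and -1.055 ± 0.07 in R42A (adjusted p 8.56e-06). Plpp3 had 52.5 and 53.5 CPM in NS and 9.83 and 10.01 CPM in ESC of the MD clones, and Plpp1 had 8.20 and 8.32 CPM in NS and 19.8 and 20.1 CPM in ESC. Over the 12 clone sums the r between them was -0.974, which describes the difference between the stages. Enpp2, as a description, went opposite ways: its log2 fold change of NS over ESC was -1.95 ± 0.52 (SE) in MD and 1.41 ± 0.54 in R42A, and the R42A value was 2.73 without clone A10 and 0.76 without clone A04.

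**Figure D3:**
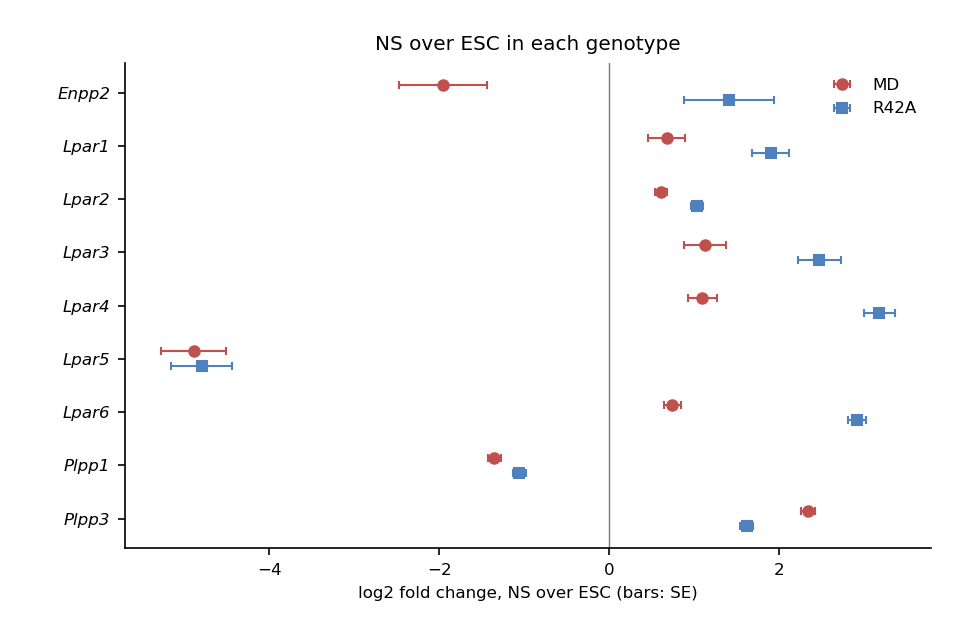
Log2 fold change of NS over ESC (x axis) for each gene (y axis) in MD (circles) and R42A (squares), with SE bars and a line at 0. Lpar6 is at 0.74 in MD and 2.92 in R42A, Lpar5 and Plpp1 are below 0 in both genotypes, and Enpp2 is at -1.95 in MD and 1.41 in R42A.

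Per length, the order of the 9 genes was as follows. In NS of MD, Plpp3 led at 62.0 ± 1.93 TPM, followed by Lpar6 (22.5 ± 0.138 TPM) and Lpar4 (22.5 ± 0.250 TPM), whose clones overlapped, and then by Lpar1, Plpp1, Lpar2, Enpp2 (3.38 ± 0.234 TPM), Lpar3 and Lpar5. In NS of R42A, Plpp3 led at 52.0 ± 1.15 TPM, then came Lpar6 (41.97 ± 0.493 TPM), Lpar4, Lpar1 and Lpar2, of which the last pair overlapped, then Plpp1, Lpar3, Enpp2 (2.29 ± 0.050 TPM) and Lpar5. In ESC of MD, Plpp1 led at 35.1 ± 1.35 TPM, and the 7 genes from Enpp2 (10.0 ± 3.04 TPM) through Plpp3, Lpar1, Lpar2, Lpar6 and Lpar4 to Lpar5 (5.61 ± 1.95 TPM) each overlapped their neighbour, with Lpar3 last. In ESC of R42A, Plpp1 led at 30.3 ± 2.45 TPM, Plpp3 followed at 13.3 ± 1.43 TPM, and Enpp2 stood next to last at 0.527 ± 0.437 TPM.

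Summed over the 6 receptors, NS held 81.4 and 82.1 TPM in the MD clones, against 133 and 131 TPM in the R42A clones. In ESC the sum ran from 38.5 to 43.8 TPM in MD and from 27.6 to 34.9 TPM in R42A. MD clones were thus below R42A clones in NS and above them in ESC. The mix shifted too: Lpar5 made up 0.20 ± 0.13% of receptor RNA in MD and 0.18 ± 0.07% in R42A in NS, and 13.7 ± 4.85% in MD and 26.3 ± 9.45% in R42A in ESC (SD, n = 2 NS clones and 4 ESC clones per genotype). Lpar4 made up 27.5 ± 0.14% in MD and 27.4 ± 0.39% in R42A in NS, and 18.5 ± 4.14% in MD and 9.52 ± 3.08% in R42A in ESC. The Edg-family receptors together held 44.7 ± 0.33% in MD and 40.6 ± 1.19% in R42A in NS, and 46.3 ± 4.24% in MD and 51.8 ± 5.10% in R42A in ESC.

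**Figure D4:**
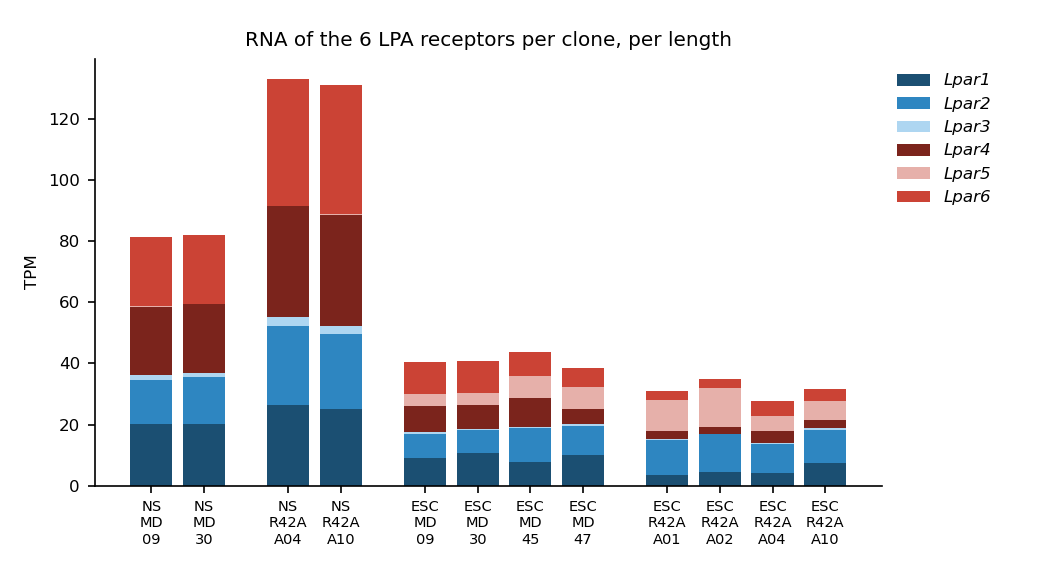
RNA of the 6 LPA receptors in TPM (y axis, from 0), stacked, for each clone (x axis: NS of MD, NS of R42A, ESC of MD, ESC of R42A). The stacks reach 81.4 and 82.1 TPM in NS of MD, 133 and 131 TPM in NS of R42A, and 27.6 to 43.8 TPM in ESC, and the pale red share of Lpar5 is visible in ESC alone.

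Beside the 6 genes given for Enpp2, the 3 genes most like each of Lpar4, Lpar1 and Plpp3 in log2 CPM were named. For Lpar4 they were Setd7 (r 0.990), Lpar6 (0.988) and Lef1 (0.988). Setd7, a lysine methyltransferase, averaged 90.9 ± 2.11 CPM in MD and 116 ± 0.354 CPM in R42A in NS, and 60.5 ± 4.52 CPM in MD and 38.4 ± 3.87 CPM in R42A in ESC. Lef1, a transcription factor of the Wnt pathway, averaged 19.4 ± 0.521 CPM in MD and 29.6 ± 0.982 CPM in R42A in NS, and 10.8 ± 1.78 CPM in MD and 5.65 ± 1.03 CPM in R42A in ESC. For Lpar1 they were Fhl2, Adam8 and Hip1 (r 0.983 to 0.986), and for Plpp3 Osbpl6, Srgap1 and Usp51 (r 0.995 to 0.996). All are over 12 sums and carry no test.

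The gene lists here and below were chosen with earlier results of these data known. Genes named from them by rule had the largest changes among those called, so the counts and p-values of these lists are descriptions. Of all genes tested, 17.4% rose and 16.3% fell in NS of MD, and 17.1% rose and 19.4% fell in ESC. Other enzymes of LPA formation and breakdown split in direction. Of 20 tested in NS, 3 rose and 3 fell in MD, with a median log2 fold change of 0.02. Gdpd1, which can release LPA inside cells, rose to 63.8 ± 0.923 CPM in MD against 25.6 ± 0.357 CPM in R42A (log2 1.32 ± 0.12, SE; edgeR adjusted p 0.000345), and Plpp7, a relative of the phosphatases without known activity, by 1.12 ± 0.22 (adjusted p 0.00871). Plpp5 (log2 -0.43 ± 0.07, adjusted p 0.00384) and Lypla1, a lysophospholipase (log2 -0.315 ± 0.07, adjusted p 0.0128), fell. Gdpd1 kept its call without either MD clone; Plpp7, Plpp5 and Lypla1 lost theirs, with adjusted p of 0.0681 to 0.149, and Plpp5 also with each chromosome scaled separately (0.462). Of 19 tested in ESC, 3 rose and 6 fell, with a median of -0.13. Liph, a phospholipase that makes LPA from phosphatidic acid, was at 68.1 ± 5.89 CPM in MD against 21.5 ± 11.2 CPM in R42A in ESC (log2 1.69 ± 0.26, SE; edgeR adjusted p 0.00139), and Mgll, which hydrolyses monoacylglycerol, fell (log2 -1.21 ± 0.26, adjusted p 0.00635).

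Among relatives of autotaxin, Enpp3, an ecto-nucleotide pyrophosphatase, fell in NS to 8.13 ± 0.6 CPM in MD against 14.01 ± 0.127 CPM in R42A (log2 -0.79 ± 0.08, SE; edgeR adjusted p 0.0005). In ESC it was higher, at 152 ± 29.8 CPM in MD against 72.5 ± 3.20 CPM in R42A (log2 1.07 ± 0.13; adjusted p 0.00048). Enpp1 fell in NS (log2 -1.01 ± 0.21, adjusted p 0.00956) and Enpp5 rose (log2 0.84 ± 0.21, adjusted p 0.0210), but neither call held without clone 09 or without clone 30 (adjusted p 0.145 to 0.191). In all, 1 of 5 relatives tested rose and 2 fell in NS, and 1 of 4 rose and 1, Enpp4, fell in ESC. The 5 PLPPR proteins, neuronal relatives of the phosphatases, were a list that moved in 1 direction: all 5 rose in NS of MD, with a median of 1.075, and 0 of 4 tested passed in ESC. Plppr3 had 139 ± 2.38 CPM in MD and 65.8 ± 0.00544 CPM in R42A in NS (log2 1.075 ± 0.06, SE; edgeR adjusted p 0.00011), Plppr1 6.64 ± 0.319 CPM in MD and 3.30 ± 0.00946 CPM in R42A (adjusted p 0.00142). Plppr3 alone of the 4 PLPPR genes named by the rule kept its call without either MD clone; Plppr1, Plppr4 and Plppr5 had adjusted p of 0.0519 to 0.121. Neuron markers were higher in the same libraries, as given above, and their part in this was not tested.

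Receptors of sphingosine 1-phosphate, the sister lipid of LPA, went in both directions. S1pr3 fell in NS to 18.6 ± 0.634 CPM in MD against 38.8 ± 1.31 CPM in R42A (log2 -1.06 ± 0.10, SE; edgeR adjusted p 0.00046), as did S1pr2 (log2 -0.565 ± 0.14, adjusted p 0.0191). S1pr1 rose by 0.95 ± 0.24 (adjusted p 0.0201). S1pr1 and S1pr2 lost the call without clone 09 or 30 (adjusted p 0.165 to 0.213), and S1pr2 also in limma voom (0.0669). Of 12 genes of the list, 1 rose and 2 fell in NS, and 1 rose and 3 fell in ESC, where S1pr1 rose (log2 1.32 ± 0.23, adjusted p 0.00271) and S1pr4 fell (log2 -1.28 ± 0.22, adjusted p 0.00231). Of 4 further receptors reported to respond to LPA, 2 passed the filter in NS and 1 in ESC, and 0 passed the test in either stage by edgeR; the list summed to at most 0.590 CPM in any clone.

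SRF and YAP response genes, which include smooth muscle actin and its partners, were mostly lower in NS and mostly higher in ESC of MD. In NS, 16 of 20 fell and 1 (Egr1) rose in MD, with a median log2 fold change of -1.36, where 16.3% of all genes fell and 17.4% rose. Tagln had 3.72 ± 0.487 CPM in MD and 105 ± 4.53 CPM in R42A (log2 -4.82 ± 0.51, SE; edgeR adjusted p 0.000681), and Acta2 3.91 ± 0.357 CPM in MD and 82.5 ± 1.39 CPM in R42A (log2 -4.40 ± 0.60; adjusted p 0.00179). Both, Cnn1 (-3.18 ± 0.35) and Ankrd1 (-3.07 ± 0.85) lost the call without clone 09, with adjusted p of 0.0501 to 0.230, and all but Cnn1 also without clone 30. Ankrd1 lost it too in limma voom (0.0759) and with no filter (0.117). In ESC, 15 of 20 rose and 0 fell, with a median of 1.09, where 17.1% of all genes rose and 19.4% fell. Tagln had 32.1 ± 8.88 CPM in MD and 4.90 ± 3.81 CPM in R42A there, and Acta2 17.8 ± 4.53 CPM in MD and 2.51 ± 2.27 CPM in R42A. In the first library series alone, which called 1769 genes in ESC, Tagln, Acta2, Liph, Mgll and S1pr1 kept their direction with adjusted p of 0.0726 to 0.127. In the second series alone Tagln (0.0996), Enpp3 (0.0541) and S1pr4 (0.0634) did not pass, nor did S1pr4 (0.120) and Enpp4 (0.307) with no series term. The list shares Acta2, Tagln and Cnn1 with the mesenchyme and smooth muscle markers, which summed in NS to 212 to 221 CPM in MD and 352 to 353 CPM in R42A, with 7 of 14 higher and 4 lower. Neither an effect of LPA on these genes nor the part of cell type was tested.

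**Figure D5:**
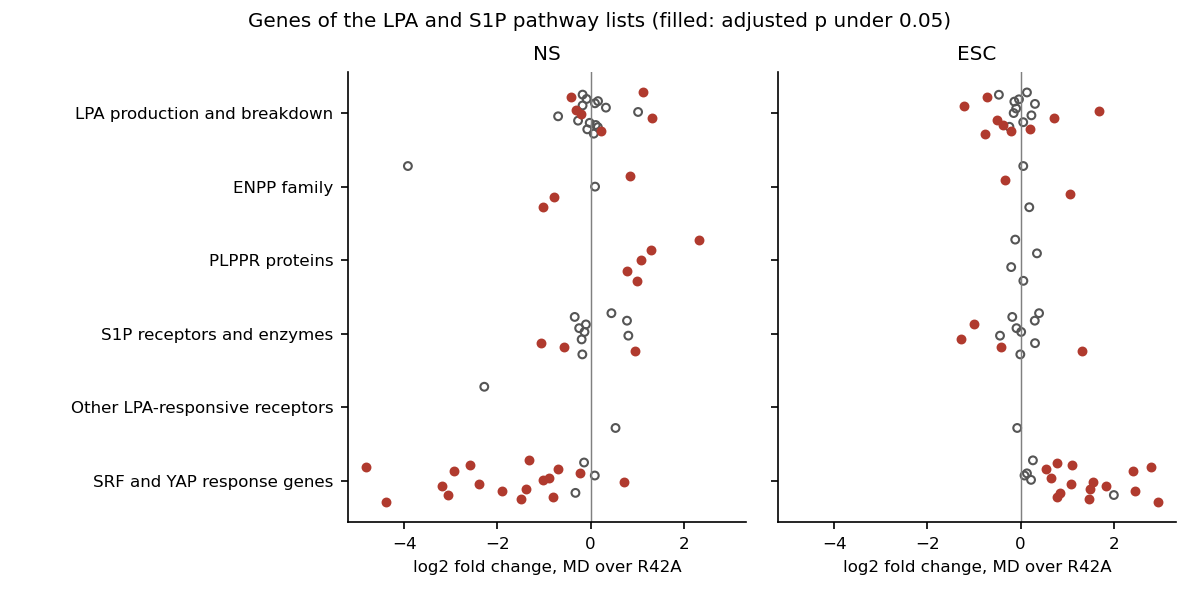
Log2 fold change of MD over R42A (x axis) for each tested gene of 6 lists around LPA and its sister lipid (y axis), in NS (left) and ESC (right); filled points passed an adjusted p under 0.05 over all genes. SRF and YAP response genes lie mostly left of 0 in NS (median -1.36) and right of 0 in ESC (median 1.09), and the 5 PLPPR genes all lie right of 0 in NS.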

How the data were processed

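The 9 members and all gene lists were chosen with earlier results of these data known. The authors deposited expected counts per gene for each library, not normalised; per the submitters' processing notes Trim Galore 0.60, STAR 2.7.1a, RSEM 1.3.0, DESeq2 and the build mm10 were used, with no roles given, and the annotation release and strand setting are not given in the sources used here. Between 1.46% and 1.7% of a library's values were not whole (tolerance 1e-06), and 92 spike-in entries, with a total of 0, were left out. Positions came from GENCODE M21, matched without version for 55394 of 55573 genes.

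Counts were rounded, summed per clone and tested with edgeR 4.0.16 (R 4.3.3): glmQLFit and glmQLFTest, TMM, filterByExpr with a minimum count of 10, Benjamini-Hochberg adjustment over all genes, threshold 0.05. ESC used 8 clone sums with library series as covariate; all other comparisons came from 1 fit of 4 groups on 8 sums. For the members, the values in ESC, of the interaction and of NS against ESC are descriptions. The fit was checked on simulated counts. Clone labels, from the sample titles, pair NS with ESC of 1 line. Library numbers are not shown to pair libraries. Genes outside the members were named by rule: per list up to 4 genes called in NS and 2 in ESC with the largest changes, and the most correlated genes. Markers named for identity, overlapping genes and Egr1 were added by hand.

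Total counts per library were 44426445 to 62803915 in NS of MD, 51736114 to 62236194 in NS of R42A, 38699951 to 87242391 in ESC of MD and 43278453 to 96424439 in ESC of R42A. Lpar5 in NS rests on 2 to 13 counts per library. Alternatives were DESeq2 1.42.0, limma voom (limma 3.58.1), RLE scaling, no filter, scaling per chromosome, single libraries with and without a replicate block, each series alone, NS alone, a clone block and leaving out each clone. TPM used the union of exons. A further gene list is not reported here.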

Additional observations from a re-analysis of the deposited data

Results flagged for a closer look

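For 7 of the 9 genes the MD difference in NS less that in ESC is given for a closer look, because the interaction term of the edgeR fit passed its threshold, as it did for 22.9% of all genes tested. The ESC contrast helped to choose the members, so neither this number nor the values count as a test. Without clone 09 or without clone 30 no member passed, and with clone as a block Lpar2 and Lpar3 did not. With no filter on low counts Enpp2 and Lpar1 did not pass either, and with each chromosome scaled separately Lpar2 did not. The value was -3.37 for Enpp2. Among receptors it was -2.17 for Lpar6, -2.08 for Lpar4, -1.34 for Lpar3, -1.22 for Lpar1 and -0.42 for Lpar2. For the phosphatase Plpp3 it was 0.72. No group of clones or libraries held a sample far from the rest by Dixon's criterion, among 36 groups examined, of which chance alone would mark about 1 in 20. Stage is confounded with library series in these values.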

How the results depend on the processing

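The number of genes called in ESC was 7862, and 3084 with no library series term, 1769 in the first series alone and 4878 in the second alone; leaving out each clone gave 5745 to 9329. In NS it was 8030, and 13643 with the NS sums alone, with 1538 to 9967 on leaving out each clone. NS against ESC gave 14428 to 20978 in MD and 17072 to 18652 in R42A on leaving out each clone. For the interaction, 5472 genes, the range was 77 to 8759. With the NS sums alone Enpp2 (0.53, adjusted p 2.77e-06), Lpar1 (-0.385, 2.3e-09) and Plpp3 (0.22, 5.47e-06) also passed in NS; that fit has 2 residual degrees of freedom. Values that changed sign were Lpar2 in ESC (0.13, each chromosome scaled separately), the Lpar5 interaction (0.29 without clone A10, 0.48 without clone 30, and -1.10 at the lowest on leaving out each clone) and, in NS, with each chromosome scaled separately, Rffl (-0.23), Sertad2 (-0.235), Egfr (-0.175) and Psme2b (-0.44). In NS Psme2b was also 0 in limma voom, and -0.021 without A10, with -0.078 to 0.082 on leaving out each clone, and Cd63 ran from -0.079 to 0.001. The cause was not tested. A replicate block on library number, fitted to single libraries, called 10111 genes in ESC and 8649 in NS; the numbers are not shown to pair libraries, since correlations of same-numbered libraries ran from -0.196 to 0.425. Depth limits Lpar5 and, less so, Lpar3 in NS.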
